A study of Rattus norvegicus with 8 samples.

Results

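The mRNA levels of 40 genes of the cell division cycle were followed in immune cells from rat liver before and after cryopreservation in dimethyl sulfoxide (DMSO). The members were taken by gene symbol, with earlier results of these data known. They comprise 9 genes of DNA synthesis (S phase: Mcm2 to Mcm7, Pcna, Tyms and Rrm2) and 31 genes of the G2 phase and mitosis (G2/M). Of the 40 symbols, 39 had a row among the 32754 genes of the count tables, and Ccnb2 had none.

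Immune cells were enriched from the livers of 4 male Han Wistar rats by filtration, lysis of erythrocytes and a density step, and sequenced on the Chromium system. The diet was defined in its amino acids and contained enough choline for the control rats NC1 and NC2 (CSAA), while it lacked choline for the rats PC1 and PC2 (CDAA). The choline-deficient diet is a model of fatty liver disease. From each rat, fresh cells and DMSO cryopreserved cells stored for 3 weeks were sequenced, so that 8 libraries form 4 pairs. Ages are not given in the sources used here, and no animals were described as pooled. Each transcript was counted once by its unique molecular identifier (UMI) at the 3′ end, so that levels were not divided by gene length. Cells are barcodes of at least 500 UMIs, and barcodes of 1 to 100 UMIs, which are mainly droplets without a cell, were used as a measure of free RNA.

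A dividing cell copies its DNA in S phase. The MCM helicase opens the double helix, PCNA clamps the polymerase to it, and Tyms and Rrm2 supply nucleotides. The G2/M genes are transcribed later, when Cdk1 with its cyclins starts mitosis, kinetochores and kinesins move the chromosomes, and the anaphase-promoting complex ends mitosis by marking proteins for destruction. In the promoters of G2/M genes, CCAAT boxes and the CHR element (TTTGAA) are known as control elements, while E2F sites (TTTCGCGC or TTTGGCGC) are known from promoters of S phase genes.

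The sequence before the start sites of the members was searched for these letters on both strands. This search takes the gene lists alone and uses no value from the libraries. Promoters came from RefSeq (build GRCr8), which is another build than that of the count tables, and held 26 of the 31 G2/M and 7 of the 9 S phase members. In the 250 bases before the start, CCAAT was present in 80.8% of the G2/M and 71.4% of the S phase promoters, against 34.2% of all 27457 promoters. TTTGAA was present in 50% of the G2/M promoters, in 14.3% of the S phase promoters and in 16.1% of all promoters. The E2F letters had the opposite distribution, with 7.69% of the G2/M, 71.4% of the S phase and 0.652% of all promoters. The windows of 3 G2/M and 3 S phase members are shown as examples of both kinds. Each is the 150 bases that end at the start site, 5′ to 3′ on the strand of the gene, and capitals mark any of the 3 motifs on either strand. Cdk1 lies at chr20:19265143-19265292 (+ strand), Cdc20 at chr5:137255800-137255949 (− strand), Prc1 at chr1:143659331-143659480 (+ strand), Mcm2 at chr4:122918095-122918244 (− strand), Mcm7 at chr12:22163179-22163328 (− strand) and Tyms at chr9:120776084-120776233 (− strand).
Cdk1: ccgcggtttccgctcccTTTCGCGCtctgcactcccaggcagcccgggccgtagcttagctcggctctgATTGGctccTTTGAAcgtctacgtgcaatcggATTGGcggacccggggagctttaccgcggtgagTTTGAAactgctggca
Cdc20: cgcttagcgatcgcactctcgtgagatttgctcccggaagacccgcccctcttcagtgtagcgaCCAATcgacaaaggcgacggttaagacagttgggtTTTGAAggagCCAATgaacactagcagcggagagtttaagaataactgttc
Prc1: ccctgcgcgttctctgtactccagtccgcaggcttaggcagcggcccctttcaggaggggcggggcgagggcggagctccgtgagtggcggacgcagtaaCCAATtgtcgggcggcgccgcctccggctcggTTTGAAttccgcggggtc
Mcm2: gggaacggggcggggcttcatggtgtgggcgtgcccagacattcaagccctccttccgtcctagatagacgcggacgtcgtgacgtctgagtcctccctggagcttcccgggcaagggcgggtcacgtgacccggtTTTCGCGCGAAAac
Mcm7: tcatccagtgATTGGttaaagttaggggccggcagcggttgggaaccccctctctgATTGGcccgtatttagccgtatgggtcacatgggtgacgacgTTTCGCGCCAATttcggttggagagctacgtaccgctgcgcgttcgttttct
Tyms: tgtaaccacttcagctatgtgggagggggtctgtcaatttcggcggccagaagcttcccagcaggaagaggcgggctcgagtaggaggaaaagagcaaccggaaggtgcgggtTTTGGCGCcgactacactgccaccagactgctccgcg
In Mcm2 the capitals are E2F letters that overlap on both strands, and in Mcm7 the E2F letters overlap a CCAAT box. Mcm2 was also the 1 S phase member with TTTGAA, which lay within the 250 bases but outside the window shown. Cdc20 and Prc1 carried CCAAT and TTTGAA but no E2F letters, whereas Cdk1 carried all 3 motifs. A match describes these letters only and does not show that a factor bound.

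The libraries held 18338700 to 26471843 UMIs and 3673 to 4771 cells, 34053 cells in all. The median depth was 3605 to 4309 UMIs per fresh cell and 3339 to 4252 UMIs per DMSO cell, and it was lower after preservation in 4 of 4 animals. The median mitochondrial share of a cell's UMIs was also lower in 4 of 4 animals, with 5.63% to 7.83% fresh and 4.77% to 7.29% DMSO. In the comparison of preservation below, a fit on cells under 20% mitochondrial UMIs gave the same call for all 38 members tested. The part of the remaining difference in mitochondrial share was not tested. Barcodes of 1 to 100 UMIs held 7.54% to 8.75% of the UMIs of fresh and 7.97% to 11.8% of those of DMSO libraries. The number of cell barcodes that any 2 libraries had in common was 13 to 36. The product of their cell numbers, divided by an assumed number of possible barcodes, gives 18.3 to 29.8 for random drawing. Markers of macrophages, NK cells, T cells, B cells and plasmacytoid dendritic cells were present in each library, and Col1a1 of fibroblasts and Slc4a1 of erythrocytes were at 0 in cells. After preservation the summed levels of neutrophil markers (466 to 1138 CPM fresh, 309 to 853 CPM DMSO), mast cell and basophil markers (9.45 to 69.2 CPM fresh, 1.003 to 5.15 CPM DMSO) and hepatocyte markers (6.56 to 19.5 CPM fresh, 1.44 to 5.38 CPM DMSO) were lower in 4 of 4 animals. Those of plasmacytoid dendritic cells and B cells were higher in 4 of 4 animals. The B cell class defined below held 1.305% to 5.08% of fresh and 1.72% to 4.49% of DMSO cells. No gain of B cells is therefore read from the marker sums. In the DMSO library of NC1 erythroid markers reached 482 CPM, against 22.1 to 38.9 CPM in the remaining libraries. The fresh cells were processed before storage and the DMSO cells after it, and preservation and day of processing therefore cannot be told apart.

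The question of the first comparison was whether preservation changed the members. UMIs were summed over the cells of each library and compared by edgeR's quasi-likelihood test with the animal as a block, and an adjusted p under 0.05 was called. Levels are UMIs per 1000000 UMIs of the library (CPM) after TMM scaling. For the sums of markers, and for groups of cells within a library, CPM is per UMIs of those cells without TMM scaling. In these sums a higher share of cells with a transcript and more transcripts per cell cannot be told apart. The test was run on 38 members, since Anln, an actin-binding protein of cytokinesis with 1 to 10 UMIs per library, did not pass the filter for low counts. After preservation 24 of the 38 members were higher, compared with 4.75% of the 11505 genes tested, and 0 were lower, compared with 4.33% of all genes. The members were chosen with earlier results of these data known, so this count is not an independent test of them. At an unadjusted p under 0.05, 34 were higher and 0 lower. DESeq2 called 23 higher and 0 lower. The shares of all genes at the unadjusted threshold and in DESeq2 are not given here. The median log2 fold change was 0.445 over the 38 members and -0.002 over all genes. Of the G2/M members, 21 of 29 were called higher, with a median of 0.60. Of the S phase members 3 of 9 were called higher (Mcm2, Pcna and Tyms), with a median of 0.28. The fitted values of the S phase members were all above 0. In the counts of gene groups below, rose means called higher. The difference between these sets was not tested. Most changes were small, and Racgap1 was the single member with more than a 2-fold change among those called (0.313% of all genes).

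The number of calls depended on the animals. Leaving out NC1 gave 23 higher members, leaving out PC1 16, PC2 14 and NC2 13. All 4 of these fits called 12 members: Cdk1, Ccnb1, Cdkn3, Birc5, Tpx2, Cdc20, Ube2c, Cenpf, Kif23, Racgap1, Stmn1 and Pcna. Mcm2 was called in 0 of them. Without the animal block 0 members were called and 17 were higher at an unadjusted p under 0.05. The shares of all genes called in these fits are not given here, so no loss particular to the members is read. The plot of changes by animal shows that for most members the 4 animals moved to the same side.

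**Figure D1:**
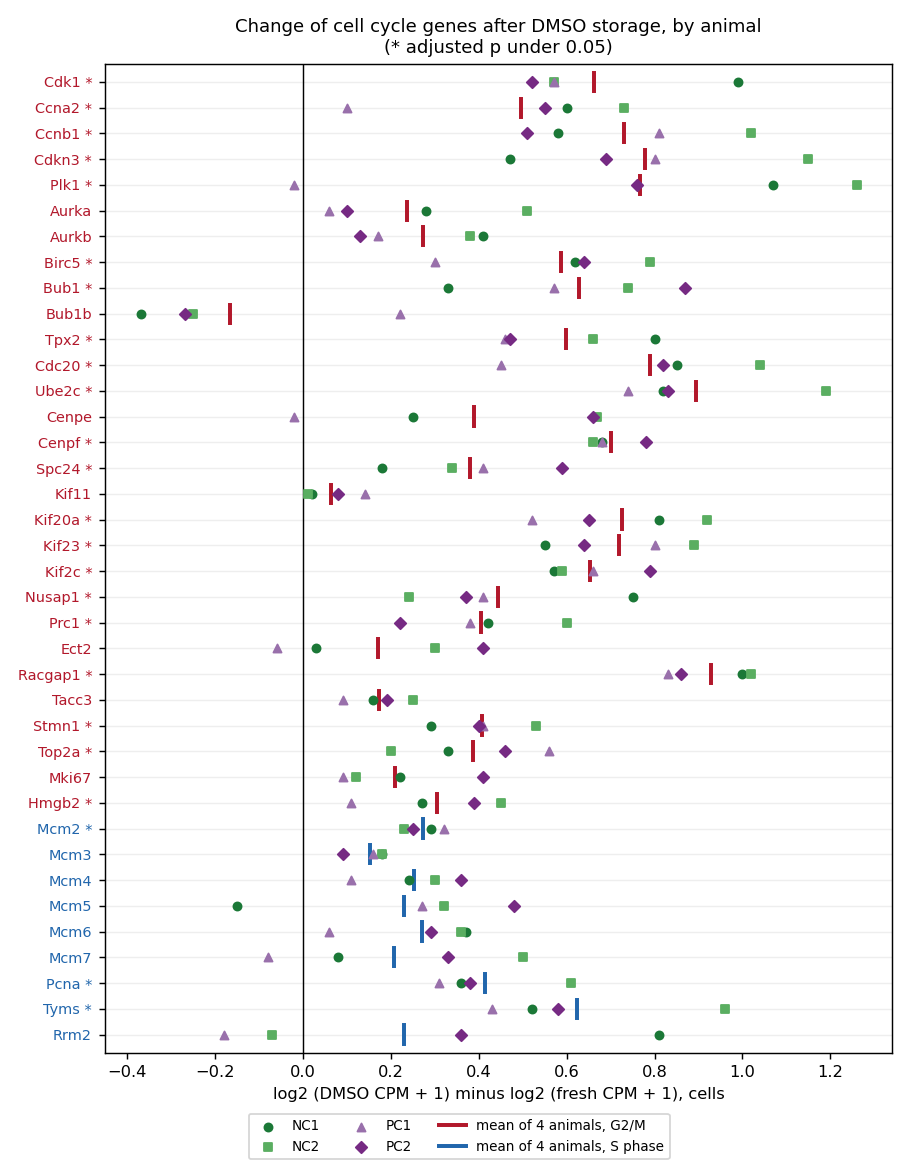
Change of the 38 tested members in each animal, as the difference of log2 (CPM + 1) between DMSO and fresh cells (x axis), with 1 line per member; symbols are the 4 animals, vertical bars their mean, and asterisks an adjusted p under 0.05 in edgeR. G2/M genes (red) reached up to 1.26 for Plk1 in NC2, S phase genes (blue) mostly lay between 0 and 0.5, and Bub1b lay below 0 in NC1, NC2 and PC2.

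All 4 genes of the Cdk1 and cyclin group rose, with a median log2 fold change of 0.75. Cdk1, the kinase that drives entry into mitosis, had 10.3, 18.9, 9.90 and 19.0 CPM in fresh cells of NC1, NC2, PC1 and PC2, and 21.4, 28.4, 15.2 and 27.8 CPM in their DMSO cells. It was higher in each animal, although the ranges of fresh and DMSO libraries overlapped, because NC2 and PC2 had more of it than NC1 and PC1 before and after storage. The fitted log2 fold change was 0.69 ± 0.10 (SE, adjusted p = 0.00371). Its partner cyclin B1 (Ccnb1) went from 7.27, 8.90, 6.09 and 9.04 to 11.3, 19.0, 11.4 and 13.3 CPM, so that the lowest DMSO library lay above the highest fresh one (0.80 ± 0.11, adjusted p = 0.00427). Cyclin A2 (Ccna2) rose by 0.60 ± 0.14 (adjusted p = 0.033), with 3.30 CPM fresh and 3.59 CPM DMSO in PC1. Cdkn3, a phosphatase that acts on cyclin-dependent kinases, changed from 19.8, 25.0, 12.9 and 20.7 to 27.7, 56.6, 23.2 and 33.9 CPM (0.81 ± 0.10, adjusted p = 0.00267).

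The genes with the strongest evidence lay in the anaphase-promoting pathway and the division apparatus. Ube2c, the ubiquitin-conjugating enzyme of the anaphase-promoting complex, had 33.3, 44.8, 26.6 and 40.01 CPM in fresh and 59.5, 103.6, 45.1 and 72.0 CPM in DMSO cells. No DMSO library overlapped the fresh ones, and the change was 1.89-fold (log2 0.92 ± 0.08, adjusted p = 0.000514). Cdc20, an activator of the same complex, rose by 0.84 ± 0.10 (adjusted p = 0.00214), from 10.1, 16.8, 10.8 and 14.6 to 19.0, 35.7, 15.1 and 26.6 CPM. Racgap1, which is needed for the cleavage furrow, had 6.37, 9.90, 4.89 and 9.61 CPM before and 13.7, 21.1, 9.48 and 18.2 CPM after storage, a 2.02-fold change (log2 1.02 ± 0.09, adjusted p = 0.000857). Its DMSO level was higher in each animal, and only PC1 after storage lay within the fresh range.

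Among mitotic kinases and checkpoint genes, 4 of 7 rose. Plk1, a kinase of centrosomes and spindle, rose by 0.87 ± 0.20 (adjusted p = 0.0308), but it had 5.66 CPM fresh and 5.55 CPM DMSO in PC1. Birc5 (survivin), which acts with Aurora B at centromeres, went from 14.3, 22.1, 15.1 and 21.7 to 22.5, 39.0, 18.8 and 34.4 CPM (0.62 ± 0.09, adjusted p = 0.00424). Tpx2, an activator of Aurora A, rose by 0.64 ± 0.10 and the checkpoint kinase Bub1 by 0.78 ± 0.16. The Aurora kinases themselves did not pass the threshold, with 0.24 ± 0.10 for Aurka (adjusted p = 0.144) and 0.29 ± 0.09 for Aurkb (adjusted p = 0.0802). Bub1b, another checkpoint gene, was the single tested member with a fitted value below 0 (-0.45 ± 0.40, adjusted p = 0.515), and its 12, 16, 8 and 23 UMIs in fresh and 3, 8, 12 and 14 UMIs in DMSO cells leave a change of this size not detectable at this depth.

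Of 7 kinetochore and kinesin genes, 5 rose. Cenpf, a kinetochore protein, had 9.98, 15.5, 9.002 and 11.3 CPM fresh and 16.6, 25.1, 15.1 and 20.1 CPM DMSO (0.75 ± 0.08, adjusted p = 0.00122). The mitotic kinesins Kif20a (0.89 ± 0.14), Kif23 (0.83 ± 0.12) and Kif2c (0.87 ± 0.17) and the kinetochore subunit Spc24 (0.40 ± 0.08) rose as well. Kif11, the motor that pushes spindle poles apart, had 4.15, 5.97, 3.60 and 4.58 CPM before and 4.21, 6.03, 4.06 and 4.88 CPM after storage (0.08 ± 0.14, adjusted p = 0.775). The kinetochore motor Cenpe did not pass the threshold (0.47 ± 0.16, adjusted p = 0.0993). Of the spindle and cytokinesis genes 4 of 6 rose. Besides Racgap1 these were Nusap1 (0.46 ± 0.10) and Prc1 (0.43 ± 0.09), which bind spindle microtubules, and Stmn1 (0.41 ± 0.05, adjusted p = 0.00267), which destabilises microtubules. Ect2, the exchange factor of the cleavage furrow (0.26 ± 0.22), and Tacc3, a spindle protein (0.18 ± 0.05, adjusted p = 0.0717), were not called.

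Of the 3 chromatin genes, Top2a and Hmgb2 rose. Mki67, the proliferation marker Ki-67, had 13.0, 17.6, 9.56 and 12.3 CPM in fresh and 15.3, 19.2, 10.2 and 16.7 CPM in DMSO cells. It was higher in each animal but did not pass the threshold (0.23 ± 0.09, adjusted p = 0.141). Top2a, which untangles DNA, rose by 0.41 ± 0.08 (adjusted p = 0.0202). Hmgb2, a DNA-bending protein with the highest counts of all members, rose from 573, 713, 491 and 574 to 692, 972, 531 and 752 CPM (0.31 ± 0.06, adjusted p = 0.0167).

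Among the S phase genes, Pcna went from 69.5, 75.0, 69.3 and 85.2 CPM in fresh to 89.4, 114.8, 86.4 and 111.1 CPM in DMSO cells (0.42 ± 0.06, adjusted p = 0.00437). All DMSO libraries lay above all fresh ones. Tyms, thymidylate synthase, was low, with 2.94, 2.79, 3.52 and 3.80 CPM before and 4.65, 6.34, 5.09 and 6.19 CPM after storage (0.76 ± 0.16, adjusted p = 0.0212), also without overlap. The 6 subunits of the MCM helicase had values between 0.16 (Mcm3) and 0.28 (Mcm2, Mcm4 and Mcm6). Only Mcm2 passed the threshold (0.28 ± 0.07, adjusted p = 0.0329), with 18.8, 21.8, 16.9 and 23.4 CPM fresh and 23.1, 25.8, 21.2 and 27.9 CPM DMSO. Mcm5 was below its fresh level in NC1 (12.9 and 11.6 CPM) and Mcm7 in PC1 (25.5 and 24.1 CPM). Rrm2, a subunit of ribonucleotide reductase, was at 0.49 to 2.24 CPM fresh and 0.61 to 2.09 CPM DMSO and was not called (0.46 ± 0.36, adjusted p = 0.461).

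A summed level can rise because more cells carry a transcript or because each of these cells carries more. The share of cells with at least 1 UMI (positive cells) was higher after preservation in 4 of 4 animals for 26 of the 39 members, compared with 8.55% of all genes, and lower in 4 of 4 animals for 0 members, compared with 24.3% of all genes. With 4 animals the smallest p of a two-sided exact permutation test of sign changes is 0.13, so that no single member could pass a threshold of 0.05. Because DMSO cells were shallower, each cell was also thinned to 1000 UMIs, which left out cells with fewer. At this depth the share was higher in 4 of 4 animals for 23 members (10.8% of all genes). These were 4 of 9 S phase and 19 of 30 G2/M members, and the median ratio of DMSO to fresh shares was 1.17 and 1.36, compared with 0.955 over all genes.

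Ube2c was detected in 8.22%, 10.2%, 6.98% and 10.9% of fresh cells of NC1, NC2, PC1 and PC2 and in 12.5%, 19.3%, 11.9% and 16.5% of their DMSO cells, a difference of 5.98 ± 2.15 percentage points (SD, n = 4 animals, exact permutation test, p = 0.13). Thinned to 1000 UMIs the means were 2.37% and 4.17%. Racgap1 had the highest ratio at this depth, 2.004, with means of 0.488% fresh and 0.978% DMSO. Pcna was found in 24.8% ± 2.59 of fresh and 30.7% ± 3.10 of DMSO cells (SD, n = 4 animals), and it was higher in each animal. Mki67 was found in 3.92%, 5.57%, 3.51% and 4.24% of fresh and 4.33%, 5.41%, 3.76% and 5.71% of DMSO cells, with NC2 slightly lower after storage. Hmgb2 was detected in most cells, in 72.8% to 75.4% of fresh and 73.3% to 78.5% of DMSO cells.

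Free RNA can put single UMIs into cells that do not transcribe a gene. As a class in which these genes should be low, 282 cells with neutrophil markers were used, with a median of 1237 UMIs against 3911 UMIs over all cells. Ube2c was found in 2.48% of them and in 11.9% of all cells, and Cdk1 in 0.355% and 5.47%. Bub1, Bub1b, Kif11, Anln and Mcm5 were found in 0 of the 282 cells, which allows a share of up to 1.06%. Thinning to 1000 UMIs kept 196 of these cells, and Ube2c was then at 1.33% in them and 3.19% in all cells. The neutrophil share was then at or above that of all cells for Hmgb2 (51.5% and 37.1%), Spc24 (2.35% and 2.28%), Prc1 (1.66% and 1.13%), Cenpe, Kif20a, Tyms and Rrm2. For these genes the share of positive cells is not read as expression. Whether their neutrophil values come from free RNA or from expression was not tested. Apart from Hmgb2, Spc24 and Prc1 the neutrophil values rest on 1 to 2 positive cells. All of these genes remain in the counts of members above and in the sets counted below, except where Hmgb2 is left out. At 1000 UMIs the neutrophil share lay below but near that of all cells for Stmn1 (12.4% and 13.7%) and Aurka (1.31% and 1.35%). Pcna had 5.94% and 7.54%. Whether these shares differ was not tested.

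The number of UMIs per positive cell was compared in the same way. At full depth it was higher in 4 of 4 animals for 12 of the 39 members (8.34% of all genes) and lower for 0 (8.28% of all genes), and the median ratio was 1.02 for S phase and 1.04 for G2/M members. Cdc20 had the highest ratio, 1.20, with 1.26, 1.53, 1.56 and 1.54 UMIs per positive fresh cell and 1.71, 1.86, 1.60 and 1.87 UMIs per positive DMSO cell. Hmgb2 was higher in each animal, with means of 3.91 and 4.51 UMIs, and so was Stmn1 with 2.68 and 2.99 UMIs. Racgap1 was at 1.53 ± 0.04 and 1.57 ± 0.11 UMIs (SD, n = 4 animals). Cells thinned to 1000 UMIs had close to 1 UMI per positive cell for most members, and with 11 members higher (7.87% of all genes) and 2 lower (7.80%) in 4 of 4 animals, and no change is read from this depth. At 2000 UMIs, 13 of the 39 members were higher in 4 of 4 animals (8.0% of all genes), among them Hmgb2 with 1.82 and 1.99 UMIs per positive cell. Lower in 4 of 4 animals were 3 members (8.57% of all genes), namely Top2a (1.174 and 1.139 UMIs), Mki67 (1.11 and 1.08 UMIs) and Aurkb (1.043 and 1.036 UMIs), a share close to the background.

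**Figure D2:**
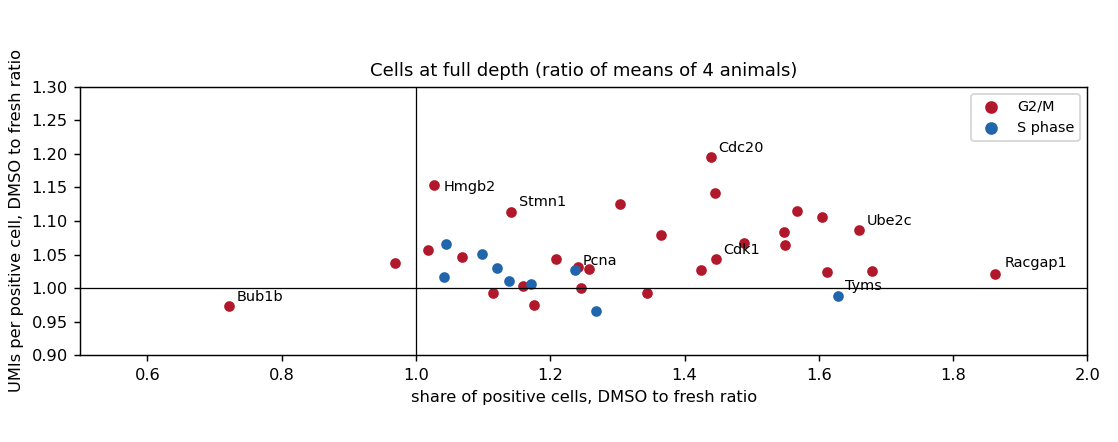
Ratio of DMSO to fresh means over 4 animals for the share of positive cells (x axis) and for the UMIs per positive cell (y axis) at full depth; each point is 1 of the 38 members tested for a change in level, red for G2/M and blue for S phase, and lines mark a ratio of 1. Shares spread up to 1.86 for Racgap1, while UMIs per positive cell lay between 0.966 and 1.20.

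A count of cells with at least 3 genes of a set also rises when the shares of single genes rise. Whether members occurred together beyond this was not tested. Such cells were counted for both sets. For the G2/M genes these were 27.9%, 36.4%, 28.2% and 38.5% of fresh cells and 31.2%, 46.4%, 36.5% and 46.7% of DMSO cells of NC1, NC2, PC1 and PC2, a mean ratio of 1.23 ± 0.08 (SD, n = 4 animals). This class is broad, because Hmgb2, Stmn1 and Tacc3 occur in many cells. Without these genes it held 5.72%, 8.62%, 4.99% and 9.16% of fresh and 7.43%, 14.1%, 9.36% and 14.7% of DMSO cells (ratio 1.60 ± 0.24). With all G2/M genes and cells thinned to 1000 UMIs it held 2.86%, 4.63%, 1.91% and 3.79% of fresh and 4.18%, 7.66%, 3.29% and 6.57% of DMSO cells (ratio 1.64 ± 0.13). Each of these shares was higher after preservation in 4 of 4 animals, and NC2 and PC2 were above their diet partner before and after storage.

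At least 3 S phase genes were found in 4.23%, 6.29%, 5.06% and 8.05% of fresh and in 5.06%, 7.89%, 6.62% and 9.73% of DMSO cells (ratio 1.24 ± 0.05). Thinned to 2000 UMIs, 0.914% ± 0.351 of fresh and 1.28% ± 0.547 of DMSO cells reached this number (SD, n = 4 animals). Cells thinned to 1000 UMIs seldom carried 3 of the 9 genes, in 0.110% to 0.252% of fresh and 0.170% to 0.386% of DMSO cells. Of the cells with 3 S phase genes, 69.0% to 80.7% of the fresh and 78.6% to 88.3% of the DMSO cells also carried 3 G2/M genes. Of the cells with 3 G2/M genes, 11.4% to 16.5% of the fresh and 13.3% to 18.2% of the DMSO cells carried 3 S phase genes. This overlap is at full depth with Hmgb2, Stmn1 and Tacc3 included, where 27.9% to 46.7% of all cells carried 3 G2/M genes. The cells with 3 G2/M genes had medians of 5330 to 7038 UMIs, against 3339 to 4309 UMIs over all cells. The part of depth in the overlap was not tested.

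**Figure D3:**
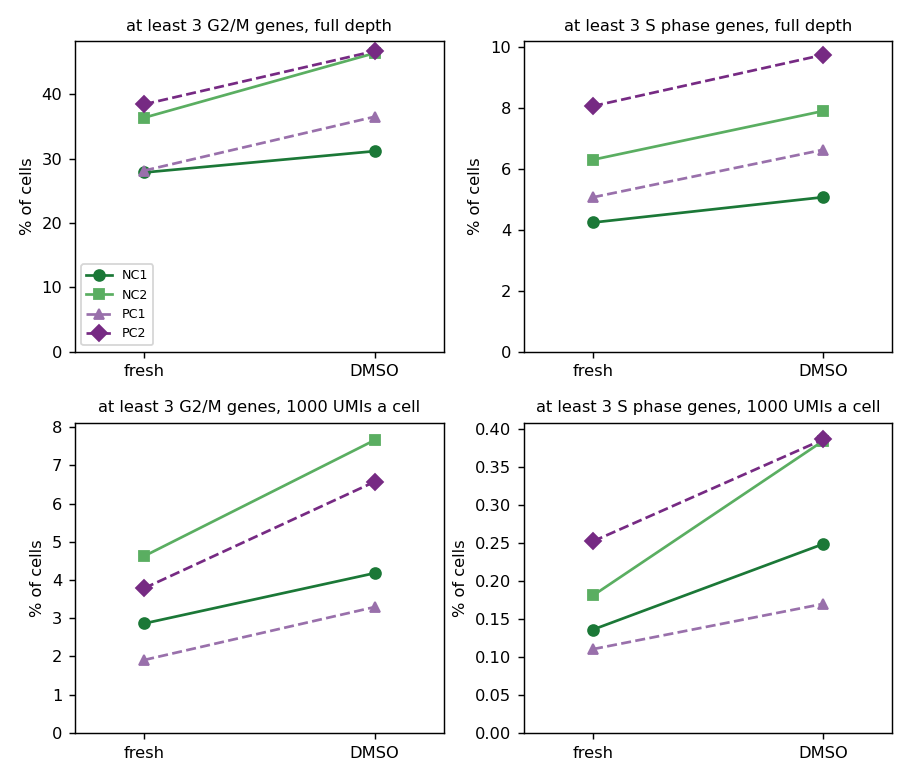
Percentage of cells (y axis) with at least 3 G2/M genes (left) or S phase genes (right) in fresh and DMSO libraries, at full depth (top) and thinned to 1000 UMIs per cell (bottom); each line is 1 animal, solid for the choline-sufficient and dashed for the choline-deficient diet. All 16 lines rise from fresh to DMSO, and the lower panels have much smaller percentages.

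Cells with at least 3 G2/M genes other than Hmgb2, Stmn1, Tacc3 and the member in question were then set against the remaining cells. They were deeper, with a median of 8213 to 10350 UMIs compared with 3192 to 4195 UMIs. In fresh libraries the median G2/M member had 58.3% of its UMIs in such cells and the median S phase member 30.3%, and in DMSO libraries 65.0% and 38.6%. Within these cells the CPM was higher in 4 of 4 animals for 2 of 30 G2/M members, Ccnb1 (mean 23.99 to 35.3) and Cdkn3 (76.0 to 97.4), and 0 of 9 S phase members, compared with 8.28% of all genes. Lower in 4 of 4 animals were the G2/M members Mki67 (mean 53.2 to 44.9) and Bub1b (2.505 to 1.19, with few counts). The share of all genes lower in 4 of 4 animals was not counted there. Several G2/M members were higher in 3 of 4 animals and lower in PC1. In PC1, Cdk1 went from 55.48 to 40.82 CPM and Ube2c from 156.1 to 146.3 CPM. Stmn1 went from 574.4 to 454.8 CPM and Hmgb2 from 1332 to 1005 CPM in the same animal. The count of members higher in 4 of 4 animals thus depended on PC1. The means over animals were nevertheless higher after preservation for 21 of 30 G2/M and 7 of 9 S phase members (41.5% of all genes), with median ratios of 1.12 and 1.05 (0.969 over all genes). In the remaining cells the CPM was higher in 4 of 4 animals for 15 of 30 G2/M and 3 of 9 S phase members, compared with 10.3% of all genes. The means there were higher for 27 of 30 and 8 of 9 members (37.8% of all genes), with median ratios of 1.26 and 1.12 (0.957 over all genes). The difference between these cells and the remaining cells was not tested. There Racgap1 went from a mean of 2.79 to 5.99 CPM and Ube2c from 17.4 to 32.4 CPM, while Mki67 had 6.34 and 6.47 CPM. The choice of these cells uses other G2/M genes and rises with depth, so these values are given without a test.

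The change was also followed in classes of cells that carried at least 3 markers of a lineage and more of them than of any other. A marker counted where its share of the cell's UMIs was over 2 times that of the library, a rule set after seeing the data. A class is a range of a score and not a type, and 25.6% of the NK/NKT, 37.7% of the T, 47.9% of the macrophage or monocyte and 58.6% of the B cells lay at the limit of 3 markers. No doublet caller was run, and leaving out cells with markers of several lineages is among the alternatives below. Thinned to 1000 UMIs, 3.43% to 7.24% of fresh NK/NKT cells and 7.06% to 12.7% of DMSO NK/NKT cells carried at least 3 G2/M genes. The T cell class had 4.22% to 7.53% and 6.65% to 9.89%, the macrophage and monocyte class 1.05% to 2.22% and 1.58% to 4.01%, and the plasmacytoid dendritic class 0.826% to 2.11% and 1.32% to 3.15%. In these 4 classes and in the cells without a class (1.48% to 5.68% and 2.55% to 8.39%) the share was higher in 4 of 4 animals. In B cells it was 1.46% to 2.98% fresh and 1.46% to 5.87% DMSO and higher in 2 of 4 animals. At full depth the share was higher in 4 of 4 animals in B cells and in 3 of 4 in T cells. The contrast between classes thus depended on the depth used, and it was not tested. The NK/NKT class itself made up 18.9% to 23.5% of fresh and 14.3% to 22.8% of DMSO cells.

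**Figure D4:**
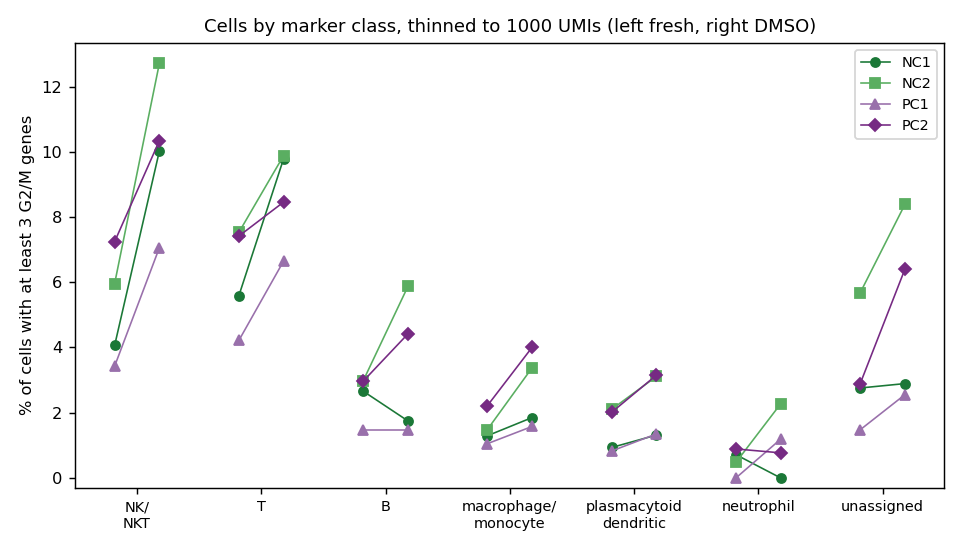
Percentage of cells with at least 3 G2/M genes (y axis), thinned to 1000 UMIs, by marker class (x axis); for each class the left points are fresh and the right points DMSO libraries, joined within each of the 4 animals. The NK/NKT class reached 12.7% after storage. The neutrophil class, with 196 cells of at least 1000 UMIs in all, stayed at or below 2.27%, a value that rests on 11 cells of NC2 DMSO.

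The same members were compared in barcodes of 1 to 100 UMIs. Here 33 members could be tested, and 17 were higher in DMSO than in fresh libraries (2.94% of 7901 genes), with 0 lower (3.28% of genes). At an unadjusted p under 0.05, 21 were higher and 0 lower. The count at the adjusted threshold was 10 without NC2 and 7 without PC1. Shares of all genes for the unadjusted threshold and for these fits are not given here. DESeq2 was not run on these barcodes. The G2/M members accounted for 16 of 26 with a median log2 fold change of 0.82, and the S phase members for 1 of 7 (Pcna) with a median of 0.14. Ube2c had 57.6, 56.8, 36.8 and 44.9 CPM in fresh and 127.8, 127.0, 99.4 and 87.2 CPM in DMSO libraries (1.17 ± 0.10, adjusted p = 1.17e-05). Ccna2 rose most, by 1.64 ± 0.29 (adjusted p = 0.00438), from 8, 11, 8 and 5 to 38, 32, 14 and 23 UMIs. Pcna rose by 0.70 ± 0.08 (adjusted p = 0.000337) and Stmn1 by 0.90 ± 0.09, and Mcm7 was at -0.02 ± 0.14. Each sum of free RNA comes from the same library as the cells, and the part of cell breakage or carry-over in either change was not tested.

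Set against the cells of the same libraries, 6 of 37 members were higher in free RNA of fresh libraries (7.20% of all genes), namely Cdkn3, Aurka, Birc5, Cdc20, Ube2c and Mcm7, and Mki67 was lower (-0.65 ± 0.17, 9.37% of all genes). Leaving out NC1 or PC1 left 1 higher member. In DMSO libraries 15 of 37 were higher (6.86% of all genes) and Cenpf was lower (-0.60 ± 0.17, 10.0% of all genes). Without PC1 this count was 6, and Cenpf was called lower in this fit only among those that left out an animal. Cdk1 had a difference of 0.27 ± 0.14 (adjusted p = 0.186) in fresh and 0.80 ± 0.14 (adjusted p = 0.000676) in DMSO libraries, and Pcna -0.03 ± 0.07 and 0.26 ± 0.07 (adjusted p = 0.0123). The median difference of the G2/M members was 0.11 in fresh and 0.48 in DMSO libraries, and that of the S phase members 0.16 and 0.10. Whether the fresh and the DMSO differences differ was not tested.

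**Figure D5:**
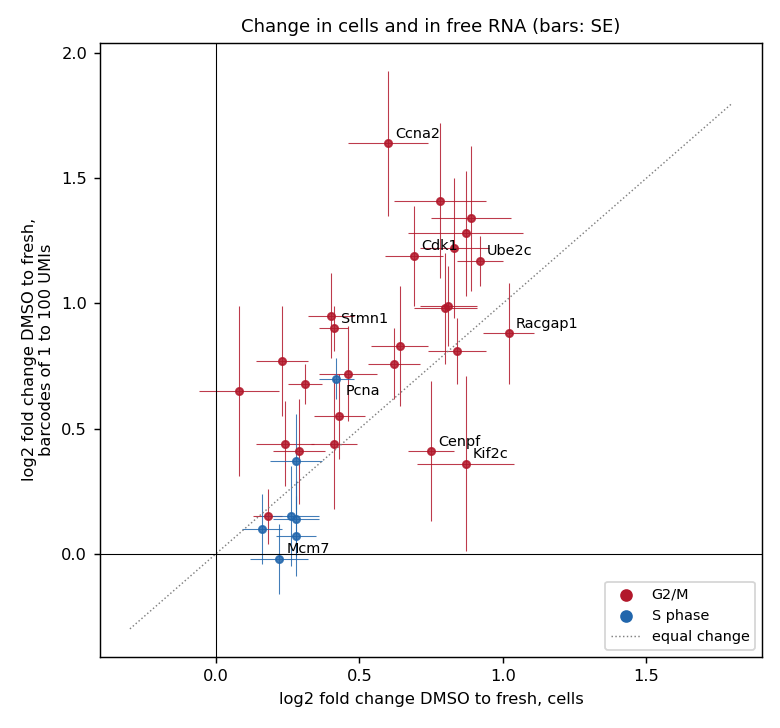
Log2 fold change of DMSO against fresh libraries in cells (x axis) and in barcodes of 1 to 100 UMIs (y axis) for the 33 members tested in both, with bars for the SE; the dotted line marks equal change. Most G2/M genes (red) lie above the line, such as Ccna2 with 0.60 and 1.64, while Racgap1, Cenpf and Kif2c lie below it.

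The diet was compared separately in fresh and in DMSO libraries of the same animals, with 2 animals per diet. In fresh cells edgeR called 0 of 38 members higher (0.866% of all genes) or lower (0.314% of all genes) on the choline-deficient diet. DESeq2 also called 0, and 1 member was lower at an unadjusted p under 0.05 in edgeR. This was Ccna2, with 4.99 and 7.46 CPM in NC1 and NC2 and 3.30 and 4.25 CPM in PC1 and PC2 (-0.69 ± 0.28, adjusted p = 0.252). In DMSO cells edgeR and DESeq2 called 0 members, compared with 0.458% of all genes higher and 0.185% lower, and 2 were lower at an unadjusted p under 0.05 in edgeR. They were Rrm2 (-1.31 ± 0.42, adjusted p = 0.244) and Ccna2 (-1.04 ± 0.37, adjusted p = 0.28). A fit without 1 animal leaves 1 animal on a diet, and no call is read from it. Cdk1 had 10.3 and 18.9 CPM in fresh cells of NC1 and NC2 and 9.90 and 19.0 CPM in those of PC1 and PC2, so that animals of 1 diet lay farther apart than the diets, whose fitted difference was 0.02 ± 0.39. The difference between the preservation effects of the diets was called for 0 of 38 members and for 0.00% of all genes. Plk1 was the single member there at an unadjusted p under 0.05 (-0.89 ± 0.30, adjusted p = 0.675). Shares of all genes at the unadjusted threshold are not given here, and no diet effect is read from Ccna2, Rrm2 or Plk1.

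A list of 112 other cell cycle genes was examined in the same fit. After preservation 24 of the 104 tested were higher, compared with 4.75% of all genes, and the median log2 fold change was 0.22. This was a smaller share than the 24 of 38 among the members. Both lists were chosen with earlier results of these data known. The 4 of the 104 that were lower are no larger a share than the 4.33% of all genes. The largest increases were those of Gadd45a, a stress-induced inhibitor of the cycle (0.88 ± 0.09, adjusted p = 0.00122), the replication factor Cdc45 (0.84 ± 0.17), Btg2, an antiproliferative gene (0.83 ± 0.09, adjusted p = 0.00122), the condensin subunit Ncaph (0.79 ± 0.16) and the kinesin Kif22 (0.73 ± 0.09). Gadd45a had 24.7, 16.3, 17.8 and 19.8 CPM in fresh and 38.1, 36.1, 29.6 and 40.3 CPM in DMSO cells. Btg2 was the most abundant of them, with 305 to 489 CPM fresh and 521 to 778 CPM DMSO. The lower genes were 1 of 2 rows named H2afz, a histone variant (-1.06 ± 0.29, adjusted p = 0.0494), 1 of 2 rows named Hmgb1, a chromatin protein (-0.47 ± 0.11), Btg1, an antiproliferative gene (-0.32 ± 0.05, adjusted p = 0.0066), and the transcription factor E2f2 (-0.25 ± 0.06). This H2afz row had 3.88, 14.5, 20.3 and 9.57 CPM in fresh cells of NC1, NC2, PC1 and PC2. Their DMSO cells had 4.9, 4.57, 5.6 and 5.75 CPM, so that NC1 was higher after storage. The H2afz and Hmgb1 rows can share reads with near-identical copies and are uncertain. For the diet, 1 of 104 was called in fresh cells: Rrm1, the large subunit of ribonucleotide reductase, had 29.0 and 31.9 CPM on the choline-sufficient and 64.3 and 67.9 CPM on the choline-deficient diet (2.21-fold, adjusted p = 0.0226). This count is close to the 0.866% of all genes that were higher. In DMSO cells its levels were 37.2 and 38.2 and then 49.1 and 54.1 CPM. There 0 of 103 genes were called by edgeR and 1 lower by DESeq2. At an unadjusted p under 0.05 in edgeR, 2 were higher and 5 lower, and the share of all genes at this threshold is not given here.

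The promoter letters were set beside the changes in cells. Of the 11 tested G2/M members with CCAAT and TTTGAA in the 250 bases before the start, 8 were higher after preservation (median log2 fold change 0.43), and of the 13 without TTTGAA 9 were higher (0.47). Of the S phase members with E2F letters, 2 of 5 were higher (0.28). Cdc20 (0.84) and Prc1 (0.43) carry the same letters as Top2a (0.41) in the windows shown or searched, and Mcm2, Mcm7 (0.22) and Tyms (0.76) all carry E2F letters. A link between these letters and the change after preservation was not tested.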

How the data were processed

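Chromium 3′ libraries of liver immune cells from 4 rats, fresh and DMSO cryopreserved, were examined. The authors made UMI counts per gene and barcode with Cell Ranger 2.1.1, STAR and bcl2fastq 2.17.1.14, per the submitters' processing notes and the rat genome Rnor6.0. The deposited counts list every barcode, without normalization or selection of cells.

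Cells were barcodes of at least 500 UMIs, and free RNA those of 1 to 100 UMIs. Library totals were 18338700 to 26471843 UMIs, and intervals and limits for counts of 0 (3 counts) cover counting error only. Sums of UMIs per library were compared in edgeR 4.0.16 (R 4.3.3) with its quasi-likelihood test, TMM, filterByExpr and Benjamini-Hochberg adjustment over all genes tested. DESeq2 1.42.0 was an alternative. The study's own test takes cells as replicates and was not used. Animals were the block for preservation, because the fresh and DMSO libraries of a pair come from the same animal. Deviations from the mean of each preservation, taken over both diets, correlated at 0.504 to 0.651 within an animal. Between different animals they correlated at 0.149 to 0.261 within a diet and at -0.468 to -0.266 across diets, so the diet is part of these values. The unblocked fit is given in the text on preservation. Shares and UMIs per positive cell were tested by permuting all 16 sign patterns of the 4 differences (exact, two-sided). Thinned values are expectations of the hypergeometric distribution, and numbers of genes per thinned cell are means of 20 draws. The edgeR scripts were tested on simulated data. Python 3.11.15, numpy 2.4.6, pandas 2.3.3, scipy 1.17.1 and matplotlib 3.10.9 were used.

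All 40 members were named, and of the other cell cycle genes the 5 largest changes in each direction among those called. The members and lists were chosen with earlier results of these data known, and adjusted p-values cover all genes.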

Additional observations from a re-analysis of the deposited data

Results flagged for a closer look

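In 2 of 38 members the change after preservation in 1 animal stood apart from the other 3, where chance gives about 1 in 20. Cdk1 rose most in NC1, with a log2 change of 0.99, against 0.57, 0.57 and 0.52 in NC2, PC1 and PC2 (gap over range 0.901). The change of Mcm3 was lowest in PC2, with 0.09, against 0.18, 0.18 and 0.16 in NC1, NC2 and PC1 (gap over range 0.854), and it was not called in edgeR.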

How the results depend on the processing

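None of the 24 members called for preservation in cells changed sign under any alternative run. For preservation in cells, 24 members were higher, 3 of S phase and 21 of G2/M. Without the animal block (pairing), 0, 0 and 0 were higher, and a 2-fold minimum left 1. Leaving out 1 animal gave 13 to 23 members, 1 to 3 of S phase and 12 to 20 of G2/M. Other cells, filters and scalings gave 23 to 25. The block changed the calls for free RNA as well (17 with and 3 without it), and leaving out animals gave 7 to 15. Free RNA against cells gave 1 to 6 higher members in fresh and 6 to 14 higher and 0 to 1 lower members in DMSO libraries when an animal was left out, and 3 higher in fresh and 0 lower in DMSO libraries for barcodes of 1 to 30 UMIs. For the diet in DMSO cells, a fit without 1 animal leaves 1 animal on a diet, and no call is read from it. The ratio for cells with at least 3 S phase genes was 1.24, and 1.18 with at least 2 genes, 1.5 with 5 and 1.76 after thinning to 1000 UMIs. For G2/M genes it was 1.23, and 1.11, 1.58 and 1.64, and 1.6 without Hmgb2, Stmn1 and Tacc3. Thinning to 1000 UMIs, the reduced G2/M set, the class rule, the fits that leave out animals for free RNA and for the diet difference, and the unblocked fit of free RNA were chosen after seeing the data. The cause of these shifts was not tested. Shares of all genes are not given for the alternative fits or for counts at an unadjusted p. The diet comparisons rest on 2 animals per diet.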
